A study of Mus musculus with 14 samples.

Results

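The genes described here encode subunits of the mitochondrial respiratory chain and ATP synthase, with the assembly factors that share their names. They are the genes whose symbol begins with Nduf, Sdh, Uqcr, Cox4 to Cox8 or Atp5, together with Cyc1 and Cycs, and they numbered 93 of the 22180 genes with a probe set of their own on the array. Of the 93, 91 were bright enough to be tested among 18010 genes. The list held 34 genes of complex I, 4 of complex II, 8 of complex III, the cytochrome c gene Cycs, 17 of complex IV (15 tested), 17 of complex V and 12 assembly factors named Ndufaf or Sdhaf. Cox7b2 and Cox8c, testis isoforms of complex IV subunits, were below the filter used, a mean log2 intensity of 6.25. This is the 25th percentile of probe sets and not a limit of detection. Cox6c, Ndufb2, Ndufb4, Ndufs6, Uqcr10 and the paralogues Ndufb4b, Ndufb4c and Ndufs6b share their probe sets with other symbols and were not analysed here.

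RNA came from the jejunum, the middle stretch of the small intestine, of 7 mice with LRH-1 K289R and 7 mice with wild-type LRH-1 (WT), with 1 Affymetrix whole-transcript array per mouse. LRH-1 is the nuclear receptor encoded by Nr5a2, and in K289R an arginine stands in place of a lysine to which the small protein SUMO is attached. All mice of both genotypes were 19 to 21 weeks old, had been fed ad libitum and were killed at 7 am. The title of the series speaks of hepatic data, whereas each sample is labelled jejunum. The labels name each sample a biological replicate, and mice were kept 5 to a cage. No zygosity, strain, sex or litter is named in the sources used here. All 12 enterocyte markers, the genes that define the absorptive cells of this tissue, passed the same filter. Their summed intensity ran from 113900 to 128100 in K289R and from 112200 to 128200 in WT. The bulk tissue does not let fewer cells of a type be told apart from less RNA per cell.

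The respiratory chain passes electrons from NADH, through complex I, and from succinate, through complex II, to coenzyme Q, then through complex III and cytochrome c to complex IV, which reduces oxygen. Complexes I, III and IV pump protons across the inner mitochondrial membrane, and complex V, the ATP synthase, uses their return flow to make ATP. Most subunits are nuclear genes imported as protein, a few are encoded by mitochondrial DNA, and in the small intestine the absorptive cells depend on this ATP for the sodium gradient that drives nutrient uptake.

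Across the 91 tested members the K289R mice had slightly lower values than WT in all but a minority of genes, by amounts too small for any single gene to pass the test. The threshold, an adjusted p under 0.05 from limma with Benjamini-Hochberg adjustment over all 18010 genes, was passed by 0 of 91 members and by 8 genes of all tested (0.0444%). At an unadjusted limma p under 0.05 there were 2 members, or 2.2%, against 8.48% of all tested genes. Both of these, Uqcr11 and Ndufa8, were lower in K289R, where 4.05% of all tested genes were lower and 4.43% higher at that p. In 0 of 91 members were the K289R and WT arrays free of overlap, against 0.167% of all tested genes. The difference between genotypes (K289R minus WT, log2 intensity) was below 0 in 73 of 91 members (80.2%), against 52.0% of all tested genes.

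The median difference was −0.045, a fold of 0.969, with quartiles of −0.081 and −0.0079, whereas the median over all tested genes was −0.0039. Single members ran from −0.20 for Atp5e to 0.12 for Ndufaf6. The standard error of a member's difference lay between 0.037 and 0.125, and the difference exceeded its own standard error in 34 of 91 members (37.4%), 32 of them lower, against 42.0% of all tested genes. Every 95% interval of a member lay between −0.40 and 0.36, and 83 of 91 lay within 0.3 on either side of 0, a fold of 0.812 to 1.23. Genes of a shared complex and arrays are not independent, so the share of lower members carries no p here. Without K289R replicate 7 the median was −0.029 and 62 members were lower, and without K289R replicate 3 there were 83 lower members.

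**Figure D1:**
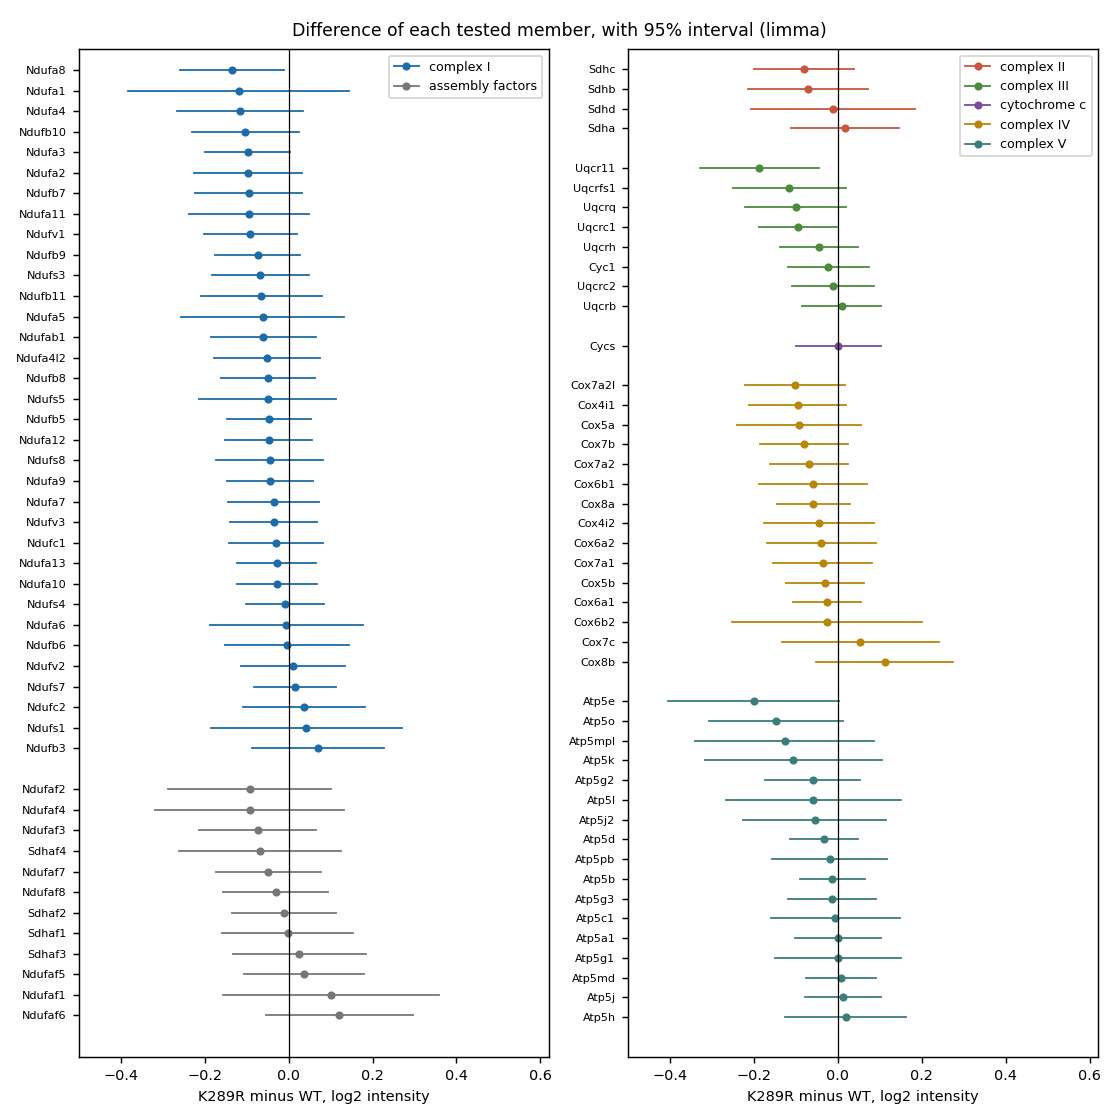
Difference between genotypes for each of the 91 tested members, in K289R minus WT log2 intensity on the horizontal axis, with limma's 95% interval as a bar; colours mark the complexes. Most points lie just left of 0 and the bars of all but Uqcr11 and Ndufa8 reach 0.

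The complexes differed little from one another. Complex III had the lowest median difference, −0.069, with 7 of 8 genes lower in K289R. Complex I had a median of −0.049 with 29 of 34 lower, complex IV one of −0.045 with 13 of 15 lower, and complex II one of −0.041 with 3 of 4 lower. Complex V stood at −0.020 with 13 of 17 lower and the assembly factors at −0.021 with 8 of 12 lower. The 79 subunits taken without the assembly factors had a median of −0.046, and 65 of them were lower. No difference between complexes was tested, since genes of a complex are not replicates. Some of these medians turned on single mice. Without K289R replicate 7 complex II stood at −0.0060 and the assembly factors at 0.0051, complex I at −0.030, and complex V stood at −0.047 without K289R replicate 3 and at −0.0094 without WT replicate 4. Complex II stood at −0.076 without K289R replicate 3, and the assembly factors at 0.00046 without WT replicate 2.

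Complex III held the member with the smallest p. Uqcr11, a small accessory subunit of the cytochrome bc1 complex, ran from 8.86 through a median of 9.16 to 9.28 in K289R and from 9.18 through 9.35 to 9.44 in WT (log2 intensity, n = 7 each, as for all such triples that follow). All 7 K289R arrays lay below the WT mean, K289R replicate 7 was lowest, and 3 K289R arrays reached into the WT range. No share of all tested genes is set beside such counts of arrays, here or for the genes below. Most of the genes so described were named for a small p, a choice that favours such counts. The difference of Uqcr11 was −0.19 (SE 0.067, 95% interval −0.33 to −0.05, limma unadjusted p = 0.0125, adjusted p = 0.440). Uqcrc1, a core protein that faces the matrix, ran from 12.32 through 12.44 to 12.49 in K289R and from 12.42 through 12.52 to 12.59 in WT. It was again below the WT mean on all 7 K289R arrays, with a difference of −0.09 (SE 0.045, limma adjusted p = 0.595).

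Uqcrfs1, the Rieske iron-sulfur protein that takes electrons from ubiquinol, ran from 9.12 through 9.35 to 9.43 in K289R and from 9.30 through 9.42 to 9.61 in WT. WT replicates 3 and 4 were the highest arrays, at 9.59 and 9.61, and the difference was −0.12 (SE 0.064, limma adjusted p = 0.623). Uqcrq, another small subunit, ran from 8.92 through 9.17 to 9.25 in K289R and from 9.11 through 9.23 to 9.34 in WT. Its difference of −0.10 (SE 0.057) was −0.065 without K289R replicate 3, its lowest array. The electron-carrying Cyc1, cytochrome c1, differed by −0.02 (SE 0.045), between 11.72 and 11.91 in K289R and between 11.73 and 11.90 in WT, so that the ranges nearly coincided. The remaining members of the complex were Uqcrh, the hinge protein, at −0.04, the core protein Uqcrc2 at −0.01 and Uqcrb at 0.01.

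Complex I was represented by 34 genes, among which Ndufa8 was the only one at an unadjusted p under 0.05. Ndufa8, an accessory subunit on the intermembrane side with paired cysteine motifs, ran from 10.46 through 10.78 to 10.86 in K289R and from 10.81 through 10.89 to 10.98 in WT. All 7 K289R arrays were below the WT mean, and K289R replicate 3 stood apart at the low end. The difference of −0.13 (SE 0.059, 95% interval −0.26 to −0.01, limma unadjusted p = 0.035, adjusted p = 0.537) was −0.086 without that array. A second, dimmer Ndufa8 probe set differed by −0.16. Ndufa3, an accessory subunit of the membrane arm, ran from 12.01 through 12.15 to 12.23 in K289R and from 12.14 through 12.23 to 12.34 in WT, below the WT mean on 7 of 7 K289R arrays, with a difference of −0.10 (SE 0.048, limma adjusted p = 0.604).

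Ndufv1, which binds NADH and the flavin that first accepts its electrons, ran from 11.23 through 11.36 to 11.50 in K289R and from 11.36 through 11.46 to 11.55 in WT. It lay under the WT mean on 6 of the 7 K289R arrays, with a difference of −0.09 (SE 0.053, limma adjusted p = 0.639). Ndufb10, an accessory subunit of the membrane arm, ran from 8.80 through 8.92 to 8.99 in K289R and from 8.80 through 9.01 to 9.21 in WT. Its K289R arrays were all below the WT mean, the lowest array of each genotype had nearly the same value, and the difference was −0.10 (SE 0.060, limma adjusted p = 0.640). Of the other subunits named Ndufv, Ndufv2 differed by 0.01 (SE 0.059) and Ndufv3 by −0.04 (SE 0.049). The iron-sulfur subunits Ndufs7 and Ndufs8 differed by 0.01 (SE 0.046) and −0.05 (SE 0.060).

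Members of complex I with a wide spread between mice gave the least certain differences. Ndufa1, an X-linked subunit needed for assembly of the membrane arm, had the largest spread within genotype of all members, an SD of 0.267, and ran from 8.41 through 9.01 to 9.30 in K289R and from 8.78 through 9.05 to 9.42 in WT. Its difference of −0.12 (SE 0.125) was −0.030 without K289R replicate 7, its lowest array. Ndufs1, the large iron-sulfur core subunit, ran from 9.92 through 10.12 to 10.78 in K289R and from 9.91 through 10.09 to 10.33 in WT. The value of 10.78 was that of K289R replicate 3, and the difference of 0.04 (SE 0.108) was −0.06 without it. Ndufa4 is classed by its symbol with complex I, although its protein is now counted with complex IV. It ran from 10.86 through 11.12 to 11.40 in K289R and from 11.14 through 11.21 to 11.38 in WT, a difference of −0.12 (SE 0.071) in which the K289R arrays enclosed the WT range. Its paralogue Ndufa4l2, known as a gene induced by hypoxia, differed by −0.05 (SE 0.060).

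**Figure D2:**
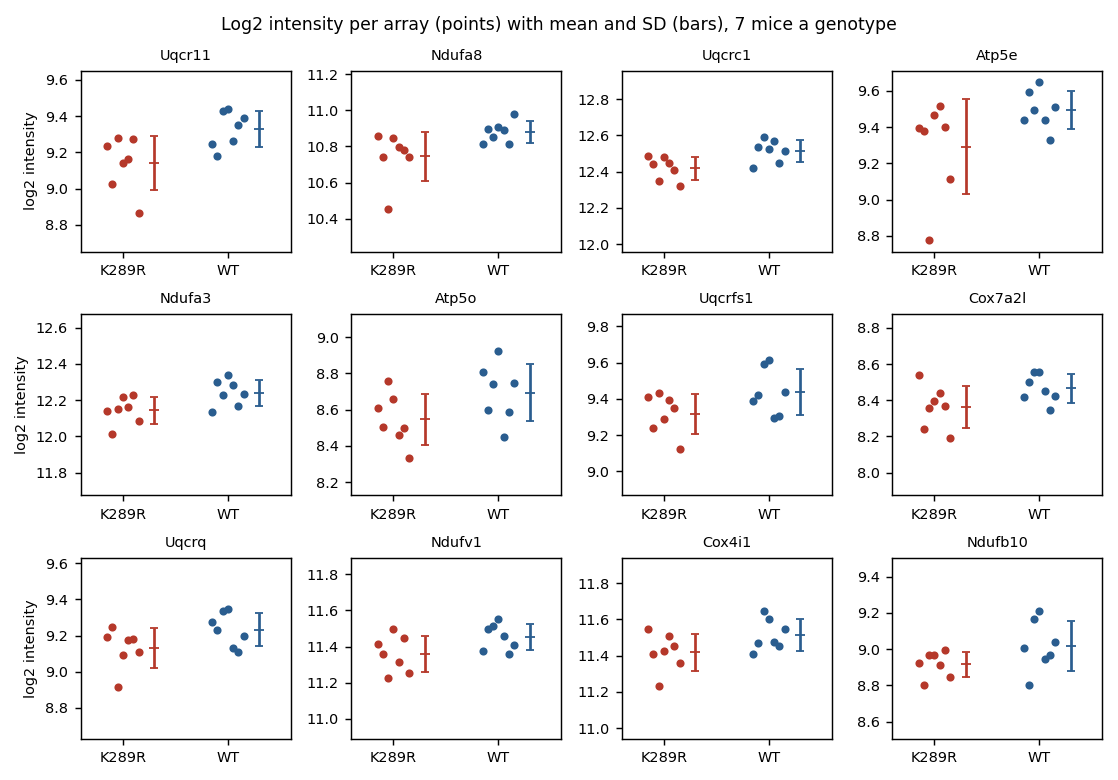
Log2 intensity on every array for the 12 members with the smallest limma p, K289R left of WT in each panel, each point 1 mouse, with the mean and SD of 7 mice as a bar; all panels span the same width of 1 log2 unit. Points of the genotypes overlap in all 12 panels, and 1 or 2 low K289R mice stand apart for Uqcr11, Ndufa8 and Atp5e.

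The promoters of the 3 members with the smallest limma p, Uqcr11, Ndufa8 and Uqcrc1, are shown. Each holds letters that are recognised by NRF-1, a regulator of nuclear genes for mitochondrial proteins. The windows run from 250 bases before to 50 after the gene start (RefSeq, GRCm38.p6), 5′ to 3′ on the strand of the gene, with GCGCATGC or its reverse complement in capitals.
Uqcr11, chr10:80406772-80407071, minus strand: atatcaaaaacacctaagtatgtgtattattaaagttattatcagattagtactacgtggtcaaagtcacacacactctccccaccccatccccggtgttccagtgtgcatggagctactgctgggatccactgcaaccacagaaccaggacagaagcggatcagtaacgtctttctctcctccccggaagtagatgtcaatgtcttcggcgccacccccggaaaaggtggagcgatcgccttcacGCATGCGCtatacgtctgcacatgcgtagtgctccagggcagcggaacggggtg
Ndufa8, chr2:36049289-36049588, minus strand: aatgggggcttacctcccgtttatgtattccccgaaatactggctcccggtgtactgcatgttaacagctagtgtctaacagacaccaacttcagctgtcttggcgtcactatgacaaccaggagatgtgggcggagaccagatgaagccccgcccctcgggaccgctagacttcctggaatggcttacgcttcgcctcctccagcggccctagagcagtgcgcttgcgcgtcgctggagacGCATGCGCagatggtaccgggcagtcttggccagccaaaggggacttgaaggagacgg
Uqcrc1, chr9:108936398-108936697, plus strand: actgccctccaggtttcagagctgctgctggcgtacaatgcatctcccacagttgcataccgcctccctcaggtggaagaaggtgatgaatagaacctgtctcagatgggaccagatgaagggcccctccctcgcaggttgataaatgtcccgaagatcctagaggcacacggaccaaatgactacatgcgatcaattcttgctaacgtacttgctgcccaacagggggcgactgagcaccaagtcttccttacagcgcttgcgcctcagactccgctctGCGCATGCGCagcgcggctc
In Uqcr11 and Ndufa8 the match lay on the opposite strand and began at positions −4 and −8 relative to the gene start, and Uqcrc1 held 2 overlapping matches, 1 per strand. Of 93 members 77 had a window, some with more than 1, and GCGCATGC stood on either strand in 13 of 82 member windows (15.9%), against 2.71% of the 32851 windows of all genes. The 13 members with these letters had a median difference of −0.071, with 11 lower, and the 63 tested members with a window without them one of −0.036, with 50 lower. Matches of the other motifs searched were CCGGAAGT, bound by the ETS factor GABP, in 5 of 82 windows (6.1%, against 3.89% of all), and AAGATGGC, bound by YY1, in 10 (12.2%, against 2.75%). The 5 members with CCGGAAGT had a median difference of −0.0585, and the 71 tested without it one of −0.0446. For AAGATGGC the medians were −0.0311 in 10 members with it and −0.0477 in 66 without. No difference between members with and without a motif was tested. These are matches of letters and not evidence of binding.

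The letters CAAGGTCA, a core that LRH-1 is known to bind, was found on either strand in 4 of 82 member windows (4.88%), against 1.56% of all windows. It is shown in 60 bases of each of the 4 promoters, since LRH-1 is the altered receptor. Capitals mark its letters, here on the opposite strand in each case.
Atp5g3, chr2:73911345-73911404, minus strand: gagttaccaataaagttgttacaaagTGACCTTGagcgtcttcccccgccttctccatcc
Atp5l, chr9:44920722-44920781, minus strand: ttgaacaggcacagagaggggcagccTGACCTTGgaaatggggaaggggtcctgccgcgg
Ndufs5, chr4:123718377-123718436, minus strand: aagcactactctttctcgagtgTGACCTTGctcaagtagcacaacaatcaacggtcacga
Sdhd, chr9:50603800-50603859, minus strand: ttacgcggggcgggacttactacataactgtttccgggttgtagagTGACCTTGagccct
The 4 genes differed by −0.01 (SE 0.050) for Atp5g3, −0.06 (SE 0.099) for Atp5l, −0.05 (SE 0.077) for Ndufs5 and −0.01 (SE 0.093) for Sdhd, each less than its standard error. Their median was −0.032, and that of the 72 tested members with a window without these letters was −0.045. Nr5a2 itself ran from 9.83 through 10.25 to 10.39 in K289R and from 10.06 through 10.36 to 10.60 in WT, a difference of −0.14 (SE 0.092, limma adjusted p = 0.685). Of the members, 6 lie on the chromosome of Nr5a2 and 0 within 10 Mb of it.

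Complex II, succinate dehydrogenase, joins the citric acid cycle to the chain through 4 nuclear subunits. Sdha, the flavoprotein that oxidises succinate, ran from 12.19 through 12.27 to 12.56 in K289R and from 12.16 through 12.25 to 12.44 in WT, a difference of 0.02 (SE 0.061). Sdhb, the iron-sulfur subunit, ran from 10.64 through 10.75 to 10.89 in K289R and from 10.66 through 10.81 to 11.07 in WT, a difference of −0.07 (SE 0.067). The K289R and WT ranges of both overlapped over most of their width, and the highest K289R value of Sdha came from replicate 3.

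The membrane anchors of complex II also overlapped. Sdhc ran from 10.94 through 11.17 to 11.21 in K289R and from 11.09 through 11.24 to 11.42 in WT. All 7 K289R arrays were below the WT mean, and the difference of −0.08 (SE 0.056) was −0.046 without the lowest array, K289R replicate 7. Sdhd, the other anchor, ran from 11.22 through 11.46 to 11.97 in K289R and from 11.35 through 11.51 to 11.65 in WT. Its highest and lowest arrays were both K289R, replicates 3 and 7, and its difference was −0.01 without any array left out, −0.09 without replicate 3 and 0.03 without replicate 7.

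Complex IV, cytochrome c oxidase, has isoform pairs that differ between tissues. Cox4i1, the general isoform of subunit 4, ran from 11.23 through 11.42 to 11.54 in K289R and from 11.41 through 11.47 to 11.65 in WT, below the WT mean on 6 of 7 K289R arrays, with a difference of −0.10 (SE 0.055, limma adjusted p = 0.639). Cox4i2, its counterpart known from lung and from hypoxia, differed by −0.04 (SE 0.062). Both members of this pair had overlapping arrays.

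The other isoform pairs showed differences of similar small size. Cox6a1, the general isoform, differed by −0.03 (SE 0.038) and Cox6a2, the isoform of heart and muscle, by −0.04 (SE 0.062). Cox6b1 differed by −0.06 (SE 0.061) and the testis isoform Cox6b2 by −0.03 (SE 0.107), the second of which was 0.03 without K289R replicate 7. Cox7a1, the heart and muscle isoform, differed by −0.04 (SE 0.056) and Cox7a2, the general one, by −0.07 (SE 0.044). Cox8a, the general isoform of subunit 8, ran from 12.77 through 12.91 to 12.92 in K289R and from 12.89 through 12.95 to 13.00 in WT. All 7 K289R arrays were below its WT mean, with a difference of −0.06 (SE 0.041, limma adjusted p = 0.699). Cox8b, the isoform of muscle and brown fat, was the highest positive difference among the subunits at 0.11 (SE 0.077), with arrays from 6.82 through 6.98 to 7.22 in K289R and from 6.65 through 6.91 to 7.16 in WT. Without WT replicate 2 it was 0.069. Some tissue isoforms were dim, with means of 6.96 for Cox8b and 7.80 for Cox6a2, against 12.92 for Cox8a and 13.51 for Cox6a1. The filter stood at 6.25. Whether differences are narrowed at so dim a signal was not tested.

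Cox7a2l, which helps join complexes III and IV into supercomplexes, ran from 8.19 through 8.37 to 8.54 in K289R and from 8.35 through 8.45 to 8.56 in WT, a difference of −0.10 (SE 0.057, limma adjusted p = 0.628). It was below the WT mean on 6 of 7 K289R arrays. The mobile carrier cytochrome c, from Cycs, differed by 0.00083 (SE 0.048), between 12.59 and 12.77 in K289R and between 12.59 and 12.79 in WT. Its sign is not settled, since 4 dimmer Cycs probe sets gave −0.07, 0.11, 0.11 and 0.00. The 2 at 0.11 had the same means, 10.892 in K289R and 10.783 in WT, so they do not count as separate measurements. Of 14 further probe sets for 11 members, 11 had the sign of the one used and 3, for Atp5h, Cox7b and Cycs, the opposite one. These counts include both Cycs probe sets at 0.11, and all Cycs signs were compared with a difference of 0.00083.

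Complex V had the member with the largest negative difference. Atp5e, the epsilon subunit of the F1 stalk, ran from 8.78 through 9.40 to 9.52 in K289R and from 9.33 through 9.50 to 9.65 in WT. K289R replicates 3 and 7 were low, at 8.78 and 9.12, and the other 12 arrays lay between 9.33 and 9.65. In this gene the difference of −0.20 (SE 0.096, limma adjusted p = 0.596) was −0.12 without replicate 3. A second Atp5e probe set differed by −0.10. Atp5o, the oligomycin sensitivity protein that links F1 to the peripheral stalk, ran from 8.33 through 8.50 to 8.76 in K289R and from 8.45 through 8.74 to 8.92 in WT, below the WT mean on 6 of 7 K289R arrays. It differed by −0.15 (SE 0.076, limma adjusted p = 0.609).

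The catalytic subunit of complex V showed the tightest values of all members and was also the brightest of them, at a mean of 13.67. Whether spread is narrowed at so bright a signal was not tested. Atp5b, the beta subunit, ran from 13.65 through 13.67 to 13.68 in K289R and from 13.62 through 13.67 to 13.71 in WT, an SD within genotype of 0.0253, and differed by −0.01 (SE 0.037, 95% interval −0.09 to 0.06). Atp5d, the delta subunit, had an SD of 0.036 and differed by −0.03 (SE 0.038). Atp5g1, Atp5g2 and Atp5g3 encode the same membrane ring protein, and the genes differed by 0.00 (SE 0.071), −0.06 (SE 0.053) and −0.01 (SE 0.050). Atp5g2 ran from 12.07 through 12.32 to 12.36 in K289R and from 12.26 through 12.32 to 12.40 in WT, so that the genotype medians were alike and only K289R replicates 3 and 5 lay below the WT range.

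Of the assembly factors among the members 4 were higher in K289R, and Ndufaf6 had the largest positive difference of all members. It ran from 7.49 through 7.67 to 7.99 in K289R and from 7.40 through 7.59 to 7.80 in WT, a difference of 0.12 (SE 0.083, limma adjusted p = 0.694) that was 0.075 without K289R replicate 3. Ndufaf1, which acts early in complex I assembly, ran from 8.65 through 8.81 to 9.69 in K289R and from 8.70 through 8.80 to 8.91 in WT. The top value was that of K289R replicate 3 alone, and its difference of 0.10 (SE 0.122) was −0.029 without that array. The factors for complex II, Sdhaf1 to Sdhaf4, lay between −0.07 and 0.03.

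The members were low or high together on some mice. The mean deviation of all tested members from the WT mean was 0.0015, −0.092, 0.024, −0.0047, −0.042, −0.026 and −0.159 on K289R replicates 1 to 7, with an SD of 0.063. On WT replicates 1 to 7 it was −0.038, 0.0083, 0.060, 0.062, −0.048, −0.066 and 0.021, with an SD of 0.052. The lowest of the 14 was K289R replicate 7, followed by K289R replicate 2, and the highest were WT replicates 4 and 3. K289R replicate 7 was the lowest K289R array for 41 of 91 members, and WT replicate 1 was the lowest WT array for 37. K289R replicate 3 was both the highest K289R array, for 34 members, and the lowest, for 17.

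Other measures moved with the members on some of these arrays and not on others. The mean deviation of the enterocyte markers was −0.148 and −0.104 on K289R replicates 7 and 2, and −0.175 and −0.064 on WT replicates 1 and 6. The highest values of that mean were 0.116 on K289R replicate 5 and 0.125 and 0.119 on WT replicates 3 and 4. The members stood at −0.042 on K289R replicate 5 and at −0.038 on WT replicate 1, so there the order differed. Fabp6, a bile acid binding protein of the ileum, had a log2 intensity of 10.71 and 9.91 on K289R replicates 2 and 7 and of 12.52 and 9.18 on WT replicates 1 and 6, against 6.09 to 6.64 on the other 10 arrays. With those 4 arrays left out, the median difference of the members was −0.037, 62 of 91 were lower, and 0 had a limma unadjusted p under 0.05. In that fit the median of complex V was 0.0026 and that of the assembly factors 0.012, and no share of all tested genes at that p is given. With the enterocyte marker mean as a covariate the median was −0.031 and 66 were lower. Among enterocyte markers 8 of 12 were lower in K289R, with a median difference of −0.023.

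Markers of other cell types are given beside these values, and 0 smooth muscle and 0 T cell markers passed limma's threshold. B cell markers were higher in K289R in 5 of 5 tested genes (median 0.15), adipocyte markers in 4 of 5 (0.13). Crypt markers were higher in 6 of 7 (0.017) and pancreatic acinar markers in 2 of 5 (−0.0025). Striated muscle and brown fat markers were higher in 2 of 6 (−0.0071), distal small intestine markers in 2 of 4 (−0.037). Of all 18010 tested genes 8643 were higher. Of the 12 smooth muscle markers 10 were higher in K289R, with a median difference of 0.21, and 7 of 12 had a limma unadjusted p under 0.05, against 8.48% of all tested genes. Their summed intensity ran from 21950 to 31320 in K289R and from 22860 to 25600 in WT. With their mean as a covariate the members had a median of −0.038, 57 of 91 were lower, complex II stood at 0.033 and the assembly factors at 0.085. In that fit Atp5e differed by −0.37 (limma adjusted p = 0.147) and Ndufaf1 by 0.37 (limma adjusted p = 0.152). The smooth muscle markers had a mean deviation of −0.113 on K289R replicate 3 and of 0.046 to 0.394 on the other K289R arrays. K289R replicate 3 also held the lowest Atp5e value, 8.78, and the highest Ndufaf1 value, 9.69. The 8 T cell markers were all higher, with a median of 0.29, 0 of 8 at a limma unadjusted p under 0.05, and sums from 1609 to 5970 in K289R and from 1820 to 5376 in WT, and with their mean as a covariate 80 members were lower. All of the smooth muscle and T cell markers passed the filter on dim genes, and the part of muscle or T cells in the members' values was not tested beyond these fits.

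**Figure D3:**
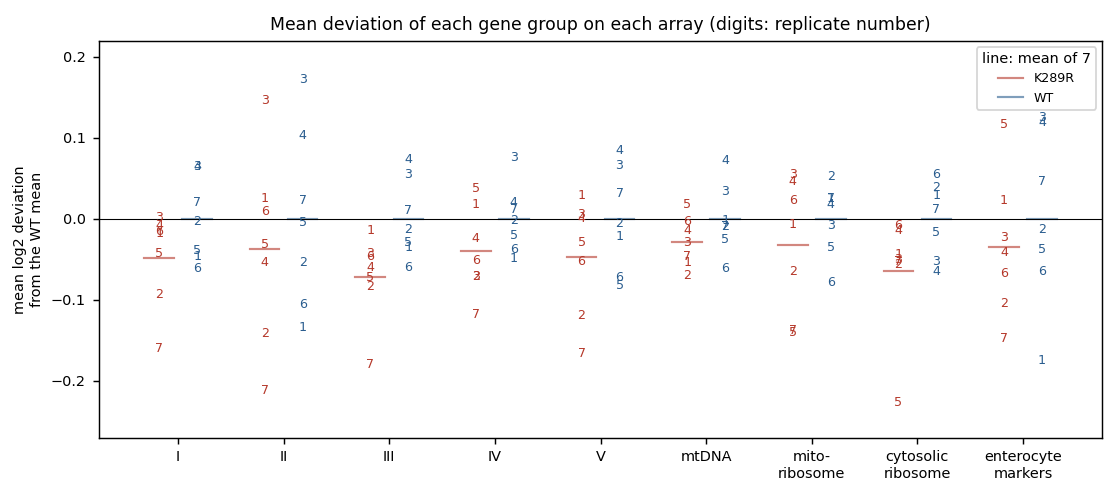
Mean log2 deviation from the WT mean (vertical axis) of each gene group on each array, with the replicate number as the symbol, K289R in red left of WT in blue, and a line at the mean of 7 mice. K289R replicate 7 is lowest for complexes I to V, WT replicates 3 and 4 are high there and for the enterocyte markers, and the K289R mean of complexes I to V lies between −0.071 and −0.037.

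Pairs of members correlated weakly over the 14 arrays once the genotype means were taken out. The median r was 0.242 over 4095 pairs, and 70.8% of pairs were above 0, whereas all pairs of tested genes had a median of −0.0043 and 49.5% above 0. These values are descriptions over the same 14 arrays, with no p. Pairs of subunits of 1 complex had a median r of 0.228 and pairs from different complexes one of 0.268. The 6 pairs within complex II had a median of 0.562, complex III one of 0.306, complex I 0.226, complex IV 0.219 and complex V 0.187. The mitochondrial ribosome genes had 0.271 and the cytosolic ribosome genes 0.252. The spread of single members was small, with a median SD within genotype of 0.109 against 0.127 for all tested genes. Among genes with a mean level between 8.80 and 11.78 it was 0.111 for 45 members and 0.123 for 6144 genes.

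The subunits encoded by mitochondrial DNA were lower in K289R in 10 of 10 tested genes of 13 listed, with a small median difference of −0.015 that was −0.0041 without WT replicate 4, and 0 passed limma's threshold or an unadjusted p under 0.05. ND6, the complex I subunit encoded on the light strand, ran from 9.73 through 10.05 to 10.26 in K289R and from 9.84 through 10.11 to 10.68 in WT, a difference of −0.15 (SE 0.122). ND4L, another complex I subunit, differed by −0.03 (SE 0.039). The mitochondrially encoded list was very bright, with a median level of 13.68 log2, against 8.22 for all tested genes. Whether differences are narrowed at so bright a signal was not tested. Of 33 further assembly factors tested, none of them a member, 22 were lower. Their median was −0.030, or −0.0074 without K289R replicate 7, and limma's threshold was passed by 0. Against 8.48% of all tested genes, 2 of them (6.06%) had a limma unadjusted p under 0.05. These were Ecsit, a complex I assembly factor also known from immune signalling, at −0.14 (SE 0.059, limma adjusted p = 0.520), and Uqcc3, for complex III, at −0.09 (SE 0.042).

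Of 18 regulators of mitochondrial gene expression 12 were lower, with a median of −0.039 (−0.017 without WT replicate 4). Limma's threshold was passed by 0, and 2 (11.1%) had a limma unadjusted p under 0.05, against 8.48% of all tested genes. Esrra, the orphan receptor ERR alpha that acts on genes of the respiratory chain, ran from 9.998 through 10.16 to 10.31 in K289R and from 10.19 through 10.33 to 10.49 in WT. The K289R and WT ranges overlapped between 10.19 and 10.31, and the difference was −0.18 (SE 0.059, limma adjusted p = 0.413). Twnk, the mitochondrial DNA helicase, differed by −0.12 (SE 0.046). The factor genes named beside the promoter letters were at −0.06 (SE 0.043) for Nrf1, 0.08 (SE 0.062) for Gabpa and 0.04 (SE 0.039) for Yy1, chosen for that and not by the naming rule.

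In the pathways that feed the chain 10 of 17 genes of pyruvate oxidation and the citric acid cycle were lower, with a median of −0.032 that was 0.0066 without K289R replicate 7. Of these genes 0 passed limma's threshold or an unadjusted p under 0.05, with Cs, citrate synthase, at −0.06 (SE 0.044) and Dlst, of the oxoglutarate dehydrogenase complex, at −0.08 (SE 0.061). The mean deviation of this list on K289R replicate 3 was 0.244, its highest. Of 16 genes of coenzyme Q synthesis and other electron entry 9 were lower, with a median of −0.024 (−0.0072 without K289R replicate 7). Limma's threshold was passed by 0. Against 8.48% of all tested genes, 1 of the 16 (6.25%) had a limma unadjusted p under 0.05. That gene, Etfb, of the flavoprotein that brings electrons from fatty acid oxidation, differed by −0.14 (SE 0.044, limma adjusted p = 0.385), and Coq9, a coenzyme Q synthesis factor, by −0.09 (SE 0.050).

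Of 12 tested carriers and channels 8 were lower, with a median of −0.017 (−0.034 without K289R replicate 3). Limma's threshold was passed by 0, and 2 (16.7%) had a limma unadjusted p under 0.05, against 8.48% of all tested genes. Slc25a4, the ADP and ATP exchanger of heart and muscle, went the other way from most members. It ran from 8.58 through 8.78 to 8.89 in K289R and from 8.48 through 8.52 to 8.57 in WT, without overlap, a difference of 0.21 (SE 0.054, limma adjusted p = 0.264). It stands beside the smooth muscle markers, which were higher in K289R too, and the part of muscle in its value was not tested. Slc25a10, the dicarboxylate carrier, differed by −0.14 (SE 0.064).

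Ribosomal protein genes were also lower in most cases, so a share of lower genes of this kind was not found in the respiratory chain alone. Of 71 mitochondrial ribosome genes 52 were lower (73.2%), with a median of −0.037 and 0 past limma's threshold. At a limma unadjusted p under 0.05, 1 was higher and 4 were lower (7.04% together), against 8.48% of all tested genes. Mrps14 differed by 0.29 (SE 0.067, limma adjusted p = 0.169) and Mrps34 by −0.20 (SE 0.065), both of the small subunit. The median of this list was −0.013 without K289R replicate 5, −0.059 without K289R replicate 3 and 0.017 with the smooth muscle covariate. Of 65 cytosolic ribosome genes 56 were lower (86.2%), with a median of −0.063 and 0 past limma's threshold. At a limma unadjusted p under 0.05 there were 6 (9.23%), all lower. Of all tested genes 8.48% reached that p, 4.05% of them lower in K289R and 4.43% higher. Rps29 differed by −0.19 (SE 0.052) and Rpl8 by −0.16 (SE 0.057). The cytosolic ribosome list had its lowest mean deviation, −0.227, on K289R replicate 5, where the members stood at −0.042, and its median was −0.030 without that array. The respiratory chain median against those of the ribosome lists was not tested.

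**Figure D4:**
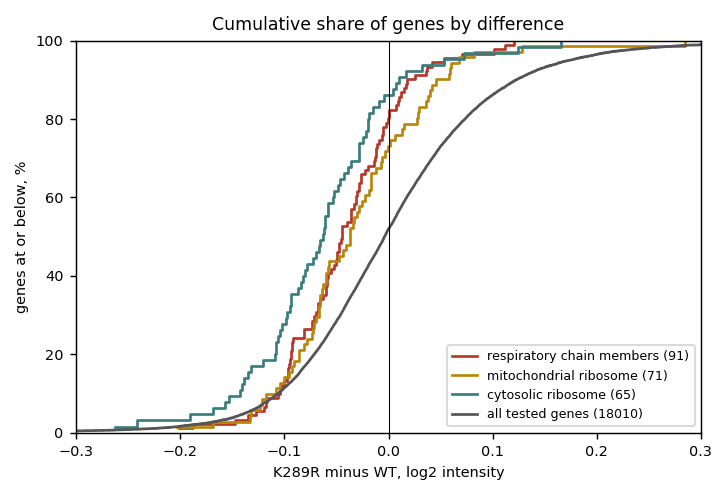
Cumulative share of genes (vertical axis, percent) at or below each difference between K289R and WT (horizontal axis, K289R minus WT, log2 intensity) for the 91 tested members, 71 mitochondrial ribosome genes, 65 cytosolic ribosome genes and all 18010 tested genes. At 0 the curve of the members stands at 80.2% and that of all tested genes at 52.0%, and the curves of the ribosome lists run beside that of the members.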

How the data were processed

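Jejunal RNA of 14 mice (7 K289R, 7 WT) was hybridised to Affymetrix whole-transcript arrays. The deposited table gives linear intensity values for 41345 probe sets, made by the authors with Affymetrix Expression Console, per the submitters' processing notes. No source used here gives its version, summarisation or normalization. Array medians of 168 to 174 are those of values on 1 scale, so no further normalization was applied, and any global shift in RNA amount is lost. The values were log2-transformed.

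Through the platform annotation 23521 probe sets had 1 symbol, 1814 several and 16010 none. Each gene was represented by its single-symbol probe set with the highest mean. Genes whose mean fell under the 25th percentile of probe sets (intensity 75.9) were left out, 4170 in all. The other 18010 entered limma 3.58.1 under R 4.3.3 (lmFit, eBayes, 2-sided, no covariate). The steps were tested on simulated data. Promoter windows and the positions of genes on chromosomes come from RefSeq tables of GRCm38.p6. The number of arrays limits the precision.

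The members and lists were chosen with earlier results of these data known. Named are the 12 members with the smallest p, the 3 with the largest difference each way, the 3 with the largest and smallest SD, isoform families, Nr5a2 and 2 genes with the smallest p per further list. Others are named to complete a complex or a motif set. Complexes were assigned by symbol.

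The labels do not say whether replicate numbers pair the mice, and a shared litter, cage or handling was not tested. Deviations of same-numbered arrays correlated between −0.151 and 0.169, above 0.1 in 1 of 7 pairs. No pair of arrays was alike within noise (smallest root mean square difference 0.241 log2, r between arrays 0.984 to 0.993). Alternatives were other normalizations, filters, probe set rules, eBayes options, array weights, a replicate block, marker means as covariates, omission of the 4 arrays with Fabp6 above 8, and omission of each array.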

Additional observations from a re-analysis of the deposited data

Results flagged for a closer look

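Of 92 sets of 7 values checked for a mouse far from the others of its genotype, 9 held one. No chance rate is set beside this count. Some of the genes had been named for a large spread or difference, and the sets share the same arrays. In K289R replicate 3 the values were low for Cox8a (12.77, next 12.88), Ndufa4l2 (6.39, next 6.62) and Ndufa8 (10.46, next 10.74), and high for Ndufaf1 (9.69, next 8.94), Ndufs1 (10.78, next 10.18) and Sdha (12.56, next 12.31). The same mouse was thus apart from its group in both directions. K289R replicate 7 was low for Sdhc (10.94, next 11.16) and for the mean deviation of complex III (−0.180, next −0.084). WT replicate 1 was low for Cox7a1 (11.78, next 11.93).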

How the results depend on the processing

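Members past the limma threshold numbered 0 in all 26 refits, and 0 at an adjusted p under 0.1 in the reported one. The lowest adjusted p of any member was 0.147. The member median stayed below 0, from −0.052 to −0.029 with 1 array left out. The 2 members at an unadjusted p under 0.05 became 9 with the smooth muscle covariate, 7 with the T cell covariate, 5 with array weights or with trend and robust options, 4 with quantile normalization or the mean over probe sets, 1 with the enterocyte covariate, 0 without the Fabp6 arrays, and 1 to 6 with 1 array left out. With the replicate block they were 4, the median was −0.045, and 0 of all tested genes passed the threshold, against 8 without it. No share of all tested genes at that unadjusted p stands beside the member counts of the refits. The 8.48% given above belongs to the reported fit alone, so these counts cannot be read against it. The labels do not say whether the replicate numbers pair the mice, and 0 K289R arrays correlated best with the WT array of their own number. The smooth muscle covariate turned the medians of the assembly factors among the members (0.085), the other assembly factors (0.020), complex II (0.033), the citric acid cycle (0.064), coenzyme Q (0.033) and the mitochondrial ribosome (0.017). Medians also turned without the Fabp6 arrays for complex V (0.0026) and the members' assembly factors (0.012), with the enterocyte covariate for the citric acid cycle (0.0011), without K289R replicate 7 for the members' assembly factors (0.0051) and the citric acid cycle (0.0066), and without WT replicate 2 for the members' assembly factors (0.00046). The cause of these changes was not tested.

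Signs turned in 45 of 986 refits of 38 named members, all in 8 genes. With the T cell covariate Atp5g1 was −0.023, Cycs −0.031, Ndufs1 −0.025 and Sdha −0.023. Array weights gave 0.024 for Cox6b2, −0.015 for Cycs, −0.0039 for Ndufs1 and −0.0043 for Sdha. A shift to 1 median gave −0.0010 for Atp5g1 and −0.00048 for Cycs, and quantile normalization −0.0080 for Atp5g1. Without the Fabp6 arrays Atp5g3 was 0.0026, Cox6b2 0.050, Cycs −0.0028 and Sdhd 0.040. The enterocyte covariate gave 0.00076 for Atp5g3 and 0.024 for Sdhd, the smooth muscle covariate 0.042 and 0.167. With 1 array left out the ranges were −0.040 to 0.029 for Atp5g1, −0.034 to 0.0064 for Atp5g3, −0.105 to 0.026 for Cox6b2, −0.015 to 0.019 for Cycs, −0.029 to 0.144 for Ndufaf1, −0.060 to 0.083 for Ndufs1, −0.027 to 0.042 for Sdha and −0.091 to 0.034 for Sdhd. With 7 mice a genotype, the 95% interval of a member reached 0.077 to 0.264 either side of its difference.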
